A study of Mus musculus with 2 samples.

Results

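The genes described here are 7 collagen genes of the mouse: Col12a1, Col14a1, Col16a1 and Col22a1, which encode fibril-associated collagens with interrupted triple helices (FACITs), and Col6a1, Col6a2 and Col6a3, which encode the chains of collagen VI. They were taken by gene symbol from the 34285 genes of the count matrices, and all 7 were found once in both libraries. Transcripts of single cells were sequenced from the lower first molars of C57BL/6J mice and the tissue next to them, harvested at PN15.5 (PN, postnatal day). One library came from mice given clodronate liposomes (Lipo-Clo), which deplete phagocytic macrophages, and the other from mice given vehicle liposomes (Lipo-PBS). Injections went into the peritoneum (40 μg clodronate liposomes per g of body weight), the first at PN3.5, then at PN6.5 and PN9.5 and the last at PN12.5, and vehicle followed the same schedule. The number of mice behind each library is not given in the sources used here. Each condition is 1 library, so no value below has a replicate check and no p-value is given. All intervals are at the 95% level (exact Poisson for counts and their ratios, Clopper-Pearson for shares) and cover counting error only.

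FACITs do not form fibrils of their own. They attach to the surface of fibrils built from collagens I and III and project side arms from them, and collagen XII and collagen XIV are the members best known from tendon, ligament and dermis. Collagen XVI is a minor FACIT found near fibrils and basement membranes, and collagen XXII is known from tissue junctions such as the myotendinous junction. Collagen VI is made from 3 different chains, which assemble inside the cell and are then secreted as beaded microfilaments that surround cells and bind other matrix proteins. Both families are abundant in the periodontal ligament, the fibrous tissue that holds the tooth root to alveolar bone and that forms from the dental follicle during root development.

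After filtering, the Lipo-Clo library held 8254 cells with 26852424 transcripts counted by unique molecular identifier (UMI), a median of 2567 per cell. For Lipo-PBS these were 8261 cells, 25831678 UMIs and a median of 2678. Only 30 cell barcodes were shared by the libraries. The cells fell into 26 clusters, which were grouped by marker genes into 10 named classes plus 1 cluster left unnamed because it carried markers of several lineages. That cluster held 60 Lipo-Clo cells and 668 Lipo-PBS cells. Macrophages, the intended target of clodronate, were 1.54% of Lipo-Clo cells and 2.11% of Lipo-PBS cells. Dental mesenchyme, into which osteoblast-, cementoblast- and odontoblast-like clusters were counted, held 4266 and 4052 cells, and all 10 of its defining markers were detected in both libraries. It was clustered again into 12 subclusters, and the 7 genes were kept out of the variable genes at both steps. Levels are given as CPM, the UMIs of a gene per 1000000 UMIs in the summed cells of a class or subcluster. They compare 1 gene between cells and libraries, never 1 gene with another, since transcripts differ in length and in how well they are captured.

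The 7 genes lie on chromosomes 9 (Col12a1), 15 (Col14a1 and Col22a1), 4 (Col16a1), 10 (Col6a1 and Col6a2) and 1 (Col6a3). The levels of the 3 collagen VI genes moved together between subclusters, as described further on, so the 100 bases upstream of their annotated starts are shown, and the same stretch of Col16a1 is shown for contrast. The sequences are those of RefSeq on GRCm38.p6, written 5′ to 3′ on the strand of the gene. Col6a1 is chr10:76726169-76726268, Col6a2 is chr10:76623631-76623730, Col6a3 is chr1:90843972-90844071, all on the minus strand, and Col16a1 is chr4:130047740-130047839 on the plus strand.
Col6a1: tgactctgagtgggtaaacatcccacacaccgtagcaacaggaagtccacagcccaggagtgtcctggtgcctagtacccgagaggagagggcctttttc
Col6a2: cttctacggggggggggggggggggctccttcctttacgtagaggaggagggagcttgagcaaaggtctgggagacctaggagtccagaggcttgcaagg
Col6a3: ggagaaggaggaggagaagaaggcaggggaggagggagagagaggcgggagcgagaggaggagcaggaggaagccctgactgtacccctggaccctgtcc
Col16a1: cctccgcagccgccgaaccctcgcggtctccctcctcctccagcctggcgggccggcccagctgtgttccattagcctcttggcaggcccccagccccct
Nothing is in capitals because none of the 4 windows held any of the 4 motifs searched on both strands. These were the TATA box TATAAA (present in 5.56% of 32851 promoter windows of the same length), the CCAAT box (in 18.9%), the GC box GGGCGG (in 24.7%) and the AP-1 motif TGANTCA (in 2.73%). The 32851 windows were cut at a fixed place in each promoter sequence, while the 4 shown were placed by the annotated gene start, so the shares are only a rough guide. Of 2 windows for Col6a2 1 is shown, and windows of Col12a1, Col14a1 and Col22a1 were not used here.

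Dental mesenchyme held most of the transcripts of every one of the 7 genes. Its share of a gene's UMIs ran from 82.9% (Col14a1) to 87.5% (Col12a1) in Lipo-Clo and from 72.4% (Col6a3) to 81.4% (Col12a1) in Lipo-PBS. The unnamed cluster, which is not counted as mesenchyme, was larger in Lipo-PBS. It held 86 of 7641 Col6a3 UMIs in Lipo-Clo and 932 of 9407 in Lipo-PBS. For Col12a1 it held 242 of 21483 and 2500 of 37751. In mesenchyme, Col12a1 stood at 1305 CPM in Lipo-Clo and 2276 in Lipo-PBS, Col16a1 at 761 and 668 CPM, and Col22a1 at only 5.76 and 5.33 CPM. Transcripts were also found in blood cells, which are not the usual source of these collagens. The neutrophil class joined a cluster of 737 cells led by Ngp, S100a8 and Camp with a cluster of 614 cells led by Prtn3, Ly6c2 and MHC class II genes, which carried 5 of 8 neutrophil and also 5 of 8 macrophage markers. In this class 19.6% of Lipo-Clo cells and 34.4% of Lipo-PBS cells had a Col12a1 UMI, at median depths of 3414 and 2467 UMIs per cell, against 72.1% and 74.7% in mesenchyme at 2844 and 2970.5 UMIs. The share was 17.8% and 28.8% in the first of its clusters and 22.1% and 39.6% in the second. Cells with at least 1000 UMIs were also thinned to 1000, and shallower cells were left out of all thinned shares. This kept 839 Lipo-Clo and 378 Lipo-PBS cells of the neutrophil class, and 3880 and 3778 of mesenchyme. The thinned shares were 8.82% and 25.1% in the neutrophil class and 54.5% and 60.7% in mesenchyme.

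Each gene was also expressed per 1000 UMIs of the fibrillar collagen genes Col1a1, Col1a2 and Col3a1 in the same cells. This proportion is a description and does not show which cells the RNA came from. Col12a1 stood at 20.1 per 1000 fibrillar UMIs in Lipo-Clo mesenchyme and at 35.9 in Lipo-PBS mesenchyme, and at 18.7 (17.2 to 20.3) and 27.5 (25.6 to 29.5) in the neutrophil class. Of its clusters, the first stood at 21.0 (18.8 to 23.4) and 32.9 (29.1 to 37.1) and the second at 16.2 (14.2 to 18.4) and 25.2 (23.0 to 27.5). In T or NK cells it was 16.8 (13.1 to 21.2) and 41.8 (35.9 to 48.5). B cells were at 24.8 (22.4 to 27.5) and 32.6 (29.1 to 36.3), and erythroid cells at 17.2 (15.1 to 19.4) and 28.0 (25.3 to 31.0). The Col12a1 proportion of these 4 blood classes was thus lower in Lipo-Clo, as in mesenchyme. Macrophages went the other way, with 35.2 (28.3 to 43.4) in Lipo-Clo against 25.8 (21.5 to 30.8) for vehicle. The interval held the mesenchymal value in Lipo-Clo for the neutrophil class and T or NK cells, and in Lipo-PBS for T or NK cells and B cells. The blood classes also differed among themselves. In Lipo-PBS the interval of T or NK cells lay above those of the neutrophil class and erythroid cells. The part of RNA from other cells in these values was not tested.

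Collagen VI was farthest from mesenchyme, relative to fibrillar collagen, in perivascular cells. Perivascular cells, the pericytes and smooth muscle of vessel walls, had Col6a1 at 429 CPM (384 to 478) in Lipo-Clo and 449 CPM (414 to 487) in Lipo-PBS, against 478 and 576 CPM in mesenchyme. Col6a3 stood there at 453 CPM (406 to 503) and 480 CPM (443 to 518), and its interval overlapped that of mesenchyme in both libraries. Relative to fibrillar collagen, the 3 genes together came to 98.6 per 1000 fibrillar UMIs (92.6 to 105) in Lipo-Clo and 84.2 (80.3 to 88.3) in Lipo-PBS perivascular cells, and to 20.05 and 23.4 in mesenchyme. Col12a1 in perivascular cells was 20.4 (17.7 to 23.3) and 39.0 (36.3 to 41.8) on the same scale, beside 20.1 and 35.9 in mesenchyme.

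Glia, the supporting cells of peripheral nerves, differed from mesenchyme as a whole in 2 FACITs. Col16a1 was 29.0 per 1000 fibrillar UMIs (25.3 to 33.2) in Lipo-Clo glia and 25.1 (22.1 to 28.4) in Lipo-PBS glia, against 11.7 and 10.5 in mesenchyme. Col14a1 was 9.55 (7.47 to 12.02) and 19.4 (16.7 to 22.3), against 1.79 and 4.43. As CPM, Col14a1 in glia (181 in Lipo-Clo, 269 in Lipo-PBS) was above the level of whole mesenchyme in Lipo-Clo (116) and had an interval that held it in Lipo-PBS (280). The collagen VI genes together were also above mesenchyme, at 34.3 (30.3 to 38.8) and 42.8 (38.8 to 47.0) per 1000 fibrillar UMIs in glia, and stood at 23.0 (18.8 to 27.9) and 30.9 (28.4 to 33.7) in endothelium. All 10 mesenchyme markers were also detected in glia, with a summed level of 27131 CPM in Lipo-Clo and 21274 in Lipo-PBS, and their part in these values was not tested. Nor were such values particular to glia, since single mesenchymal subclusters, described further on, came near or passed them. Per 1000 fibrillar UMIs, Col14a1 was 17.2 and 26.0 in subcluster 3 and 18.6 and 23.8 in subcluster 8. Collagen VI was 51.6 and 60.1 in subcluster 3, and Col16a1 was 27.6 and 20.1 in subcluster 4.

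Within epithelium, 1 small cluster held most Col14a1 UMIs, 83 of 117 in Lipo-Clo and 186 of 287 in Lipo-PBS. This cluster of 59 Lipo-Clo and 74 Lipo-PBS cells was led by Cyp26a1, which degrades retinoic acid, the desmosomal cadherin Dsc3 and Nppc. It stood at 521 CPM (415 to 645) in Lipo-Clo and 781 CPM (672 to 901) in Lipo-PBS, with a UMI in 69.5% and 78.4% of cells at median depths of 1941 and 2203. The ameloblast-led cluster had Col14a1 at 17.5 and 46.2 CPM, and the keratinocyte-led cluster with Krt13 and Krt15 at 6.00 and 39.3 CPM. Per 1000 fibrillar UMIs the small cluster stood at 18.8 (14.9 to 23.2) and 72.2 (62.2 to 83.4). By the naming rule it carried 3 of the 10 epithelial markers, the fewest the rule accepts.

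**Figure D1:**
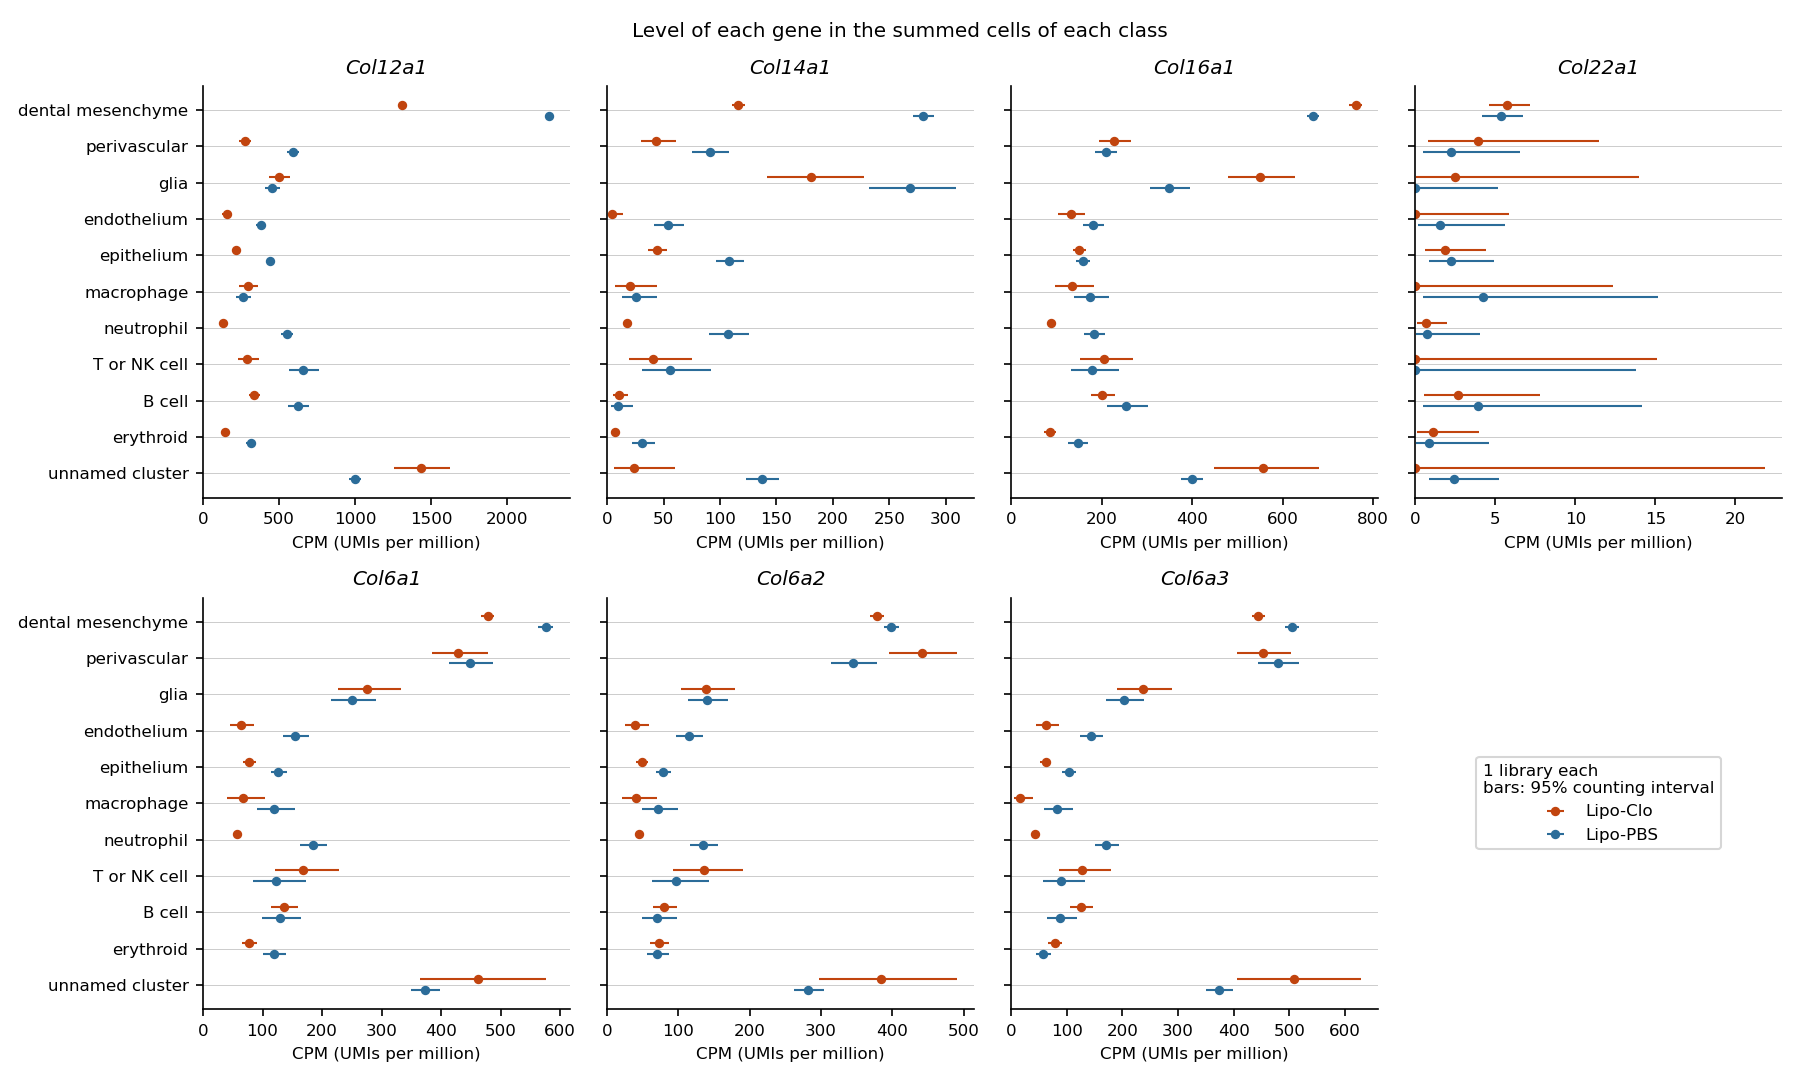
Level of each of the 7 genes in CPM (horizontal axis, linear) in the summed cells of each class (vertical axis), with Lipo-Clo in orange, Lipo-PBS in blue and bars for the 95% counting interval of 1 library each. Among the named classes outside mesenchyme, the collagen VI genes are highest in perivascular cells, with Col6a3 at 453 and 480 CPM.

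**Figure D2:**
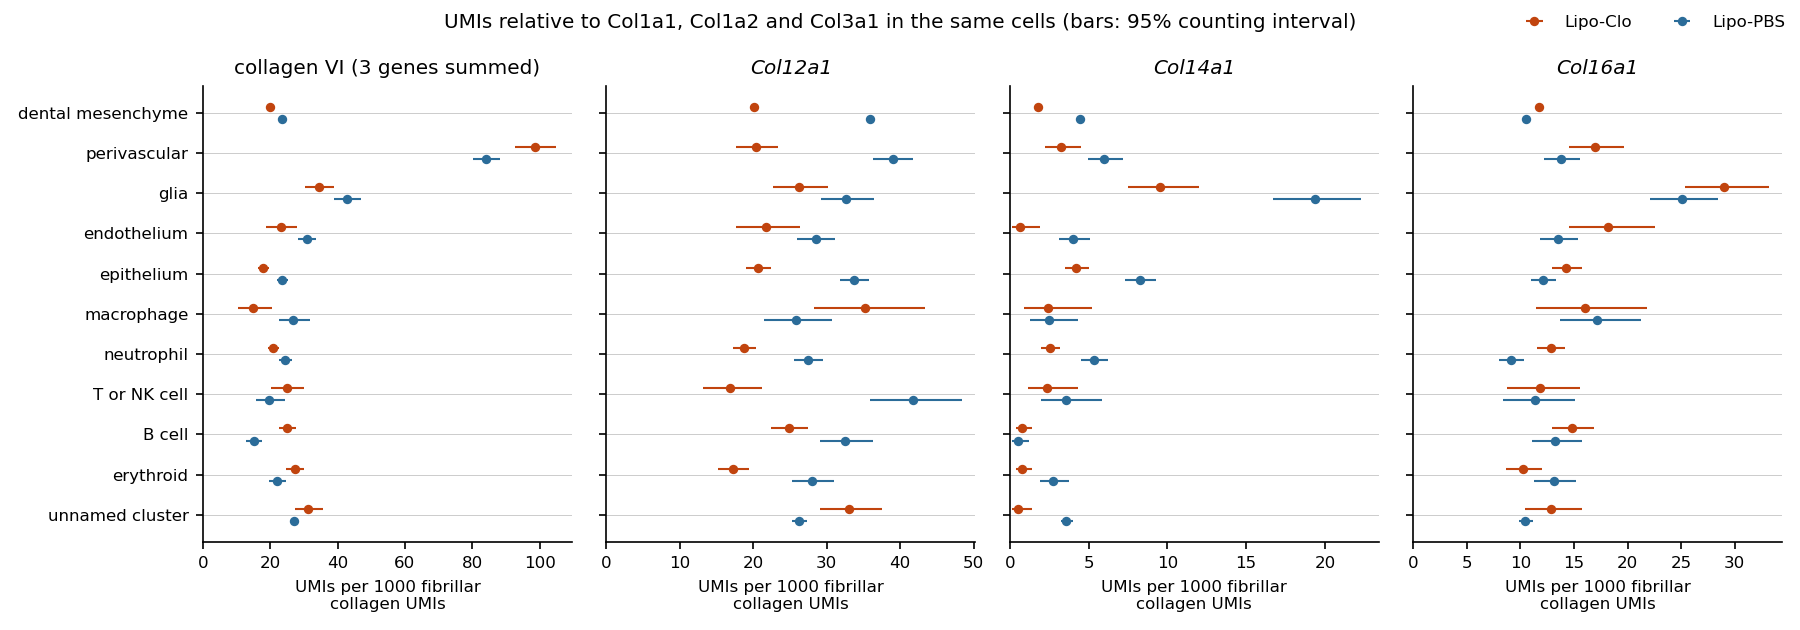
UMIs of collagen VI (3 genes summed), Col12a1, Col14a1 and Col16a1 per 1000 UMIs of Col1a1, Col1a2 and Col3a1 in each class, with 95% counting intervals for the single library of each condition. Among the classes, collagen VI is highest in perivascular cells (98.6 and 84.2), and Col14a1 and Col16a1 are highest in glia.

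The mesenchymal subclusters separated the 7 genes into different patterns. Subcluster 1 was dental follicle-like (led by Dio2, Grem1 and Moxd1), and subclusters 2 (Pappa2, Npnt, Tnn) and 5 (Ccn5, Chodl, Fmod) were periodontal ligament-like. Subcluster 0 was osteoblast- or cementoblast-like (Dmp1, Ibsp, Bglap2), and subclusters 4 (Lrrc4c, Kcnip4), 6 (Pcp4, Sfrp2, Mmp13) and 7 (Ctnnd2, Erbb4, Enpp6) were papilla- or pulp-like by their markers. Subcluster 8 was like adventitial or gingival fibroblasts (Pi16, Mfap5, Clec3b), and subcluster 9 was dividing cells. Subclusters 3 (Clec3b, Eln, Gdf10, Ccl19), 10 (Dspp, Bglap, Mmp20) and 11 (haemoglobin genes) stayed unnamed. How many cells fell in each is not compared between the libraries, since the genes that define the subclusters also differed between them. The same limit applies to the weighting of subclusters used further on.

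Col12a1, the chain of collagen XII, had its highest CPM in follicle- and ligament-like subclusters. It was highest in the follicle-like subcluster 1, at 2730 CPM (2662 to 2799) in Lipo-Clo and 6670 CPM (6535 to 6808) in Lipo-PBS. The ligament-like subclusters 5 (2295 and 3652 CPM) and 2 (1674 and 3463 CPM) followed, and then the osteoblast- or cementoblast-like subcluster 0 (1468 and 2070 CPM). The order of these 4 was the same in both libraries with intervals that did not overlap. At the bottom were the Pi16 subcluster 8 (343 and 359 CPM) and the Dspp-led subcluster 10 (175 and 356 CPM), whose intervals overlapped in Lipo-PBS. Per 1000 fibrillar UMIs the order was another. Subcluster 1 stood at 32.5 and 95.4, subcluster 5 at 29.3 and 54.4 and subcluster 2 at 17.6 and 30.0. The papilla- or pulp-like subclusters 7 (46.5 and 43.8) and 4 (34.4 and 42.5) were above all of these in Lipo-Clo and above subcluster 2 in Lipo-PBS.

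Col14a1, the chain of collagen XIV, had its highest levels where Col12a1 was among its lowest. It stood at 1108 CPM (1043 to 1176) in Lipo-Clo and 1309 CPM (1252 to 1368) in Lipo-PBS in the Clec3b, Eln and Ccl19 subcluster 3, and at 991 CPM (899 to 1089) and 1142 CPM (1080 to 1206) in the Pi16 subcluster 8. Subcluster 3 held 64.6% and 52.2% of the gene's mesenchymal UMIs and subcluster 8 held 25.5% and 33.8%. With cells thinned to 1000 UMIs, 60.1% and 66.6% of subcluster 3 cells and 56.3% and 63.8% of subcluster 8 cells had a Col14a1 UMI, against 0.678% and 1.02% in the follicle-like subcluster 1. The next level was that of the ligament-like subcluster 5, at 94.4 and 158 CPM.

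As CPM, Col16a1 was highest in the Tnn and Pappa2 ligament-like subcluster 2. It reached 1769 CPM (1715 to 1824) in Lipo-Clo and 1940 CPM (1873 to 2009) in Lipo-PBS there, with 37.0% and 34.9% of the mesenchymal UMIs of the gene. The dividing subcluster 9 came next (978 and 778 CPM), and its interval overlapped that of the following subcluster in both libraries. The lowest levels were 126 CPM in subcluster 10 of Lipo-Clo and 206 CPM in subcluster 8 of Lipo-PBS, the latter not apart from subcluster 10 at 210 CPM. The order depended on the scale. Per 1000 fibrillar UMIs, subcluster 2 stood at 18.6 and 16.8. The papilla- or pulp-like subclusters 4 (27.6 and 20.1) and 7 (23.2 and 17.4) were higher on this scale. Subcluster 6, also papilla- or pulp-like, was lower than subcluster 2 in both libraries.

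Col22a1 was sparse, with 83 mesenchymal UMIs in Lipo-Clo and 72 in Lipo-PBS. Its highest level was in the Fmod ligament-like subcluster 5, at 43.9 CPM (29.0 to 63.9) and 16.8 CPM (11.2 to 24.3), followed by the mineralizing subclusters 10 (13.2 and 12.4 CPM) and 0 (11.7 and 13.8 CPM). Only in Lipo-Clo was the first clear of the next in order. In subclusters 3 and 8, the home of Col14a1, 0 Col22a1 UMIs were counted in both libraries, with upper bounds of 3.78 and 2.45 CPM in subcluster 3 and of 8.56 and 3.30 CPM in subcluster 8.

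The 3 collagen VI genes shared 1 pattern that took in the Col14a1 subclusters 3 and 8 and the Col12a1-rich subclusters 5 and 1. It left out the ligament-like subcluster 2, where Col16a1 had its highest CPM and Col6a1 stood at 239 and 293 CPM. Col6a1 was highest in subclusters 3 (1236 and 1196 CPM), 5 (1235 and 955 CPM) and 8 (1095 and 1044 CPM), then in the follicle-like subcluster 1 (759 and 671 CPM). Col6a2 was highest in subcluster 3 in both libraries, at 1137 and 898 CPM. Col6a3 was highest in the Fmod ligament-like subcluster 5, at 1514 CPM (1418 to 1614) in Lipo-Clo and 973 CPM (927 to 1022) in Lipo-PBS, where it was not apart from subcluster 3 at 929 CPM. All 3 were lowest in the Dspp-led subcluster 10, from 54.0 to 77.7 CPM in Lipo-Clo and from 65.8 to 110.3 CPM in Lipo-PBS.

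The balance of the chains differed between subclusters. Col6a3, which encodes the largest chain, gave 22.2% of the collagen VI UMIs in the osteoblast- or cementoblast-like subcluster 0 of Lipo-Clo and 22.1% in Lipo-PBS. In the follicle-like subcluster 1 its share was 39.8% and 42.3%, and in the ligament-like subcluster 5 it was 40.9% and 38.7%. These shares are of UMIs and are not corrected for transcript length. Relative to fibrillar collagen, the 3 genes together ran from 1.46 and 2.32 per 1000 UMIs in subcluster 10 to 53.7 in subcluster 8 of Lipo-Clo and 60.1 in subcluster 3 of Lipo-PBS.

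**Figure D3:**
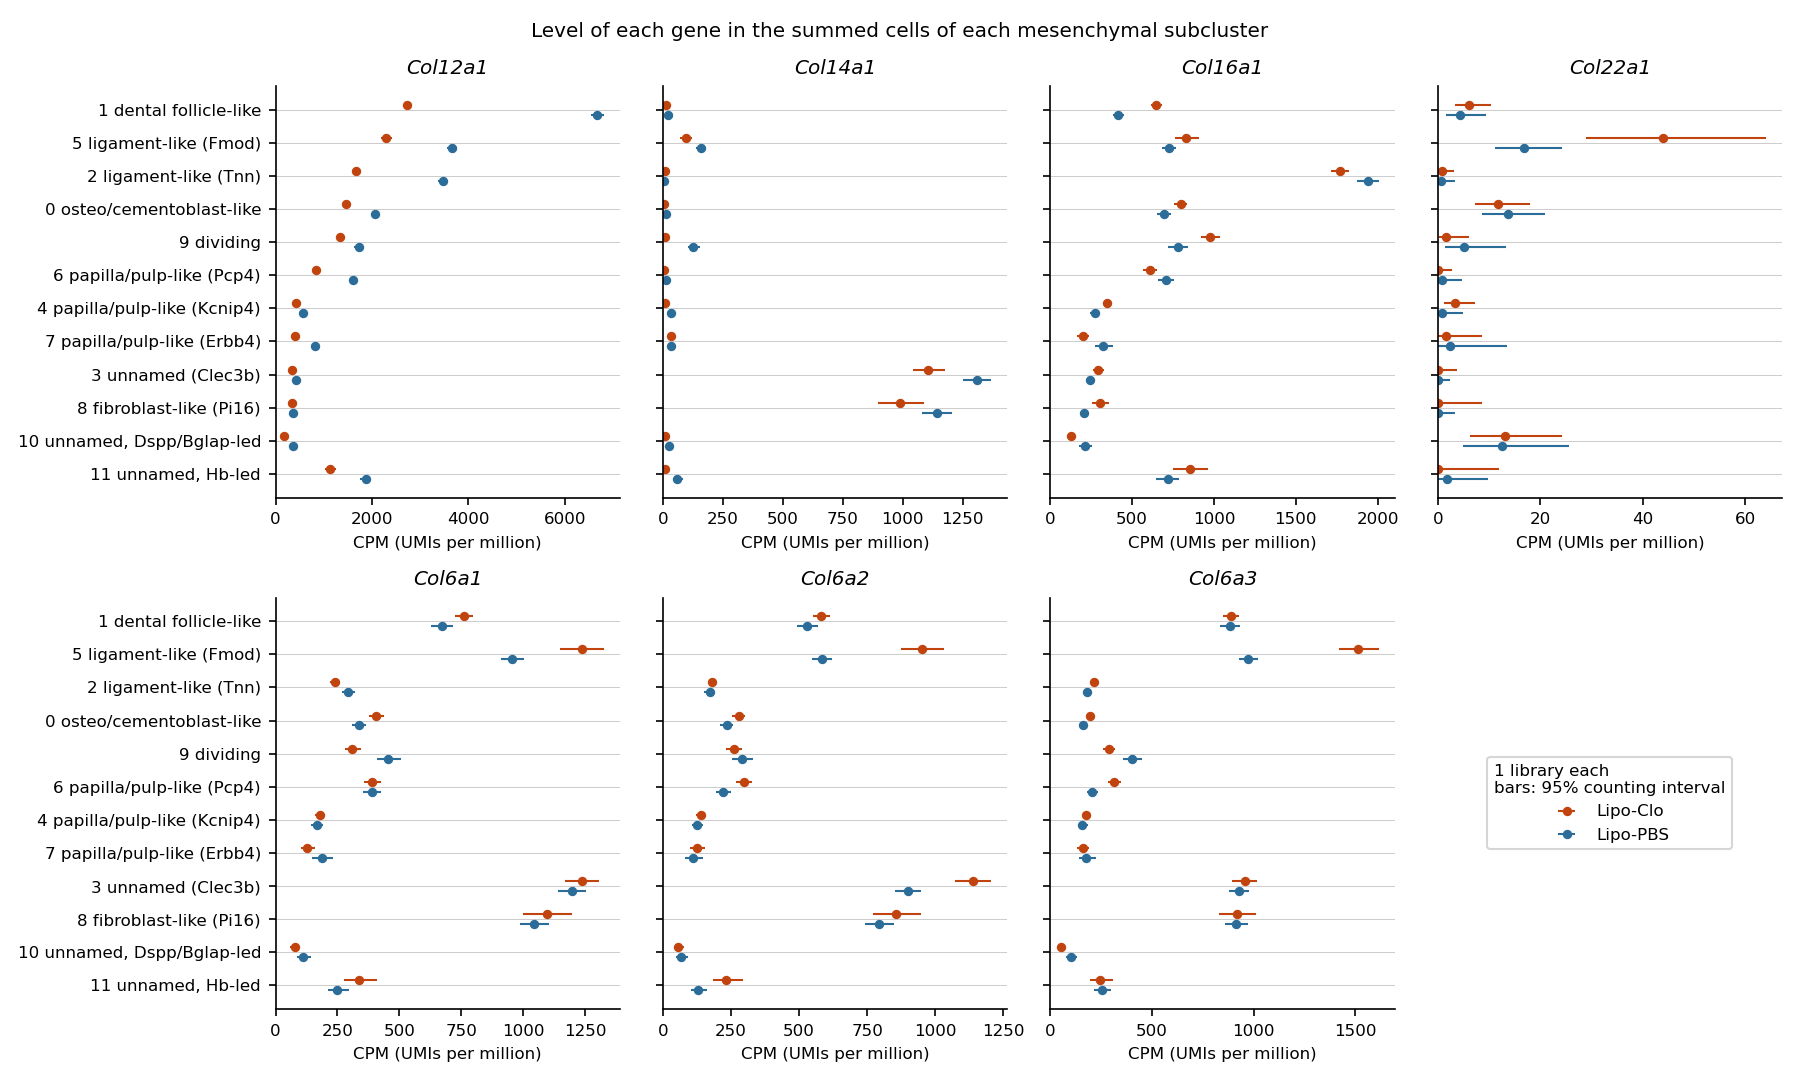
Level of each gene in CPM (linear axis) in the 12 mesenchymal subclusters, 1 library per condition, with 95% counting intervals. Col12a1 peaks in the follicle-like subcluster 1, Col16a1 in the ligament-like subcluster 2, Col14a1 in subclusters 3 and 8, and the collagen VI genes in subclusters 1, 3, 5 and 8.

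Likeness of pattern was measured as Pearson's r of log2(CPM + 1) over 24 points, the 12 subclusters in each library, against 4749 genes in use (genes found in 10% or more of the mesenchymal cells in Lipo-Clo or in Lipo-PBS). The points share libraries and depth, so r is a description. The genes nearest to Col12a1 were Tnmd (r = 0.92), which encodes the tendon and ligament glycoprotein tenomodulin, Sncaip (0.90) and Spon1 (0.89). Col14a1 was nearest to Mfap5 (0.97), Cd34 (0.95) and Clec3b (0.95). For Col16a1 the nearest were Pappa2 (0.89), the integrin ligand Npnt (0.89) and Tnn (0.85), which encodes tenascin-W. Of these genes, Tnmd, Mfap5, Cd34, Clec3b, Pappa2 and Tnn were also markers used to name subclusters, so they add nothing independent to the names. Col22a1 was nearest to Col24a1 (0.79), Kcnma1 (0.72) and Cd200 (0.72), from few counts. For the collagen VI genes the nearest were each other, with r of 0.98 between Col6a1 and Col6a2 and 0.95 for both pairs with Col6a3, followed by Mxra7 or Col5a3. Between members of different kinds, r was 0.78 for Col12a1 and Col16a1, -0.33 for Col12a1 and Col14a1, and 0.63 for Col14a1 and Col6a1. For Col6a1 it was 0.28 with Col12a1 and 0.17 with Col16a1.

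The study asked how loss of macrophages alters the dental tissue, and the members were therefore compared between the libraries in the summed mesenchyme. Col12a1 and Col14a1 were lower in Lipo-Clo. Col12a1 had 18799 UMIs in Lipo-Clo and 30712 in Lipo-PBS, which is 1305 and 2276 CPM and a log2 ratio (Lipo-Clo over Lipo-PBS) of -0.80 (-0.83 to -0.78). Col14a1 had 1674 and 3782 UMIs, 116 and 280 CPM, for a log2 ratio of -1.27 (-1.35 to -1.19). At a limit of 1.5-fold, 2 of the 7 members were thus lower in Lipo-Clo and 0 higher, while 5.24% of all 4749 genes in use were lower and 0.927% higher. With a limit of 2-fold 1 member, Col14a1, was lower, as were 1.01% of all genes in use.

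The other members differed by less than 1.5-fold. The log2 ratio of Col16a1 was 0.19 (0.15 to 0.23), from 761 CPM with clodronate and 668 CPM with vehicle. The collagen VI genes had log2 ratios of -0.27 for Col6a1 (478 and 576 CPM), -0.08 for Col6a2 (378 and 399 CPM) and -0.18 for Col6a3 (445 and 505 CPM), each with an interval below 0, as had 36.8% of all genes in use (36.6% had one above 0). Col22a1, at 5.76 and 5.33 CPM, had a log2 ratio of 0.11 whose interval (-0.36 to 0.59) spanned 0, and its 1.45% and 1.31% of cells with a UMI put it below the 10% of cells required of a gene in use. The median over the 7 members was -0.18, beside -0.01 over all genes in use.

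The ratios of several members depended on how the subclusters were weighted. When each of the 12 subclusters was given 1 weight for Lipo-Clo and Lipo-PBS alike, the mean of its shares of UMIs, Col12a1 kept a log2 ratio of -0.90 (1281 and 2394 CPM), while that of Col14a1 shrank to -0.36 (170 and 218 CPM) and no longer passed 1.5-fold. The collagen VI genes turned to the other side, at 0.09 for Col6a1, 0.28 for Col6a2 and 0.17 for Col6a3. Col16a1 stood at 0.09. The fibrillar gene Col3a1 also changed sign, from -0.11 to 0.08. Col1a1 went from 0.15 to 0.08 and Col1a2 from -0.11 to -0.14. The median of the members became 0.09, and that of all genes in use was -0.01. Differences between the animals and differences in dissociation cannot be told apart with 1 library each. Haemoglobin and other erythroid markers also differed between the mesenchymal sums, all 8 detected in both, at 22068 CPM in Lipo-Clo and 51652 in Lipo-PBS, as did the 8 neutrophil markers at 607 and 196 CPM. Their part in these ratios was not tested.

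**Figure D4:**
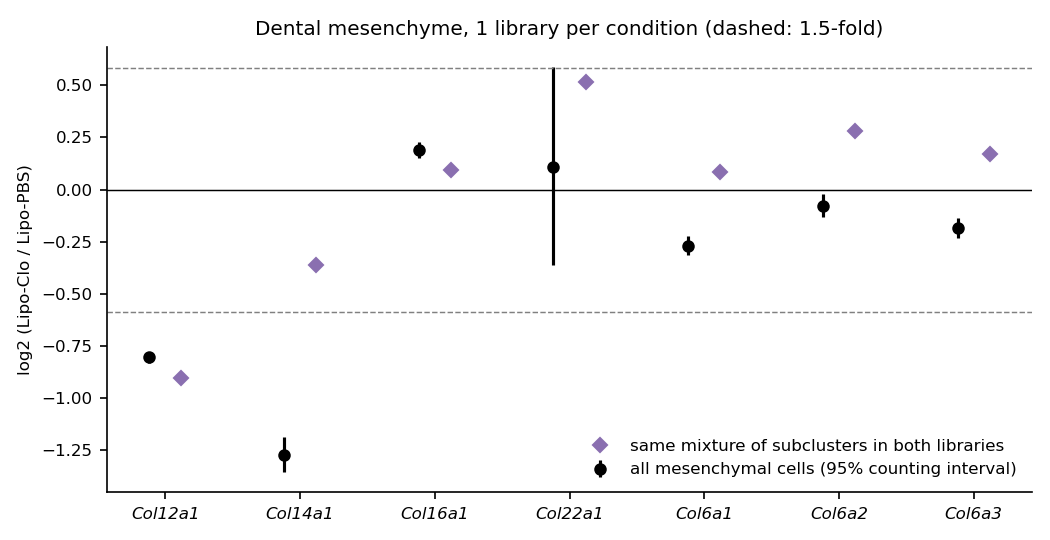
Log2 ratio of Lipo-Clo over Lipo-PBS for each gene in summed dental mesenchyme, as measured (black, with 95% counting interval) and after giving each subcluster the same weight in Lipo-Clo as in Lipo-PBS (purple). Dashed lines mark 1.5-fold. Col12a1 stays below the lower line both ways, Col14a1 only as measured, and the collagen VI genes change side of 0.

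Within subclusters, Col12a1 was lower in Lipo-Clo in all 12, and in 11 of them the interval lay below 0. Of all pairs of a gene in use and a subcluster with at least 50 UMIs, 13.9% lay below 0 in this way. The log2 ratio was -1.29 (-1.34 to -1.24) in the follicle-like subcluster 1, from 6670 CPM in Lipo-PBS to 2730 CPM in Lipo-Clo. It was -1.05 (-1.11 to -0.99) in the ligament-like subcluster 2 and -0.67 (-0.75 to -0.59) in subcluster 5. The markers behind these names were also lower with clodronate. The 6 dental follicle markers summed to 2825 CPM in subcluster 1 with clodronate, against 4373 with vehicle. For the 8 periodontal ligament markers the sums were 3005 and 5488 CPM in subcluster 2 and 4442 and 5171 CPM in subcluster 5. The part of these marker shifts in the Col12a1 ratios was not tested. In the papilla- or pulp-like subcluster 7 Col12a1 was -1.04 (-1.28 to -0.80), but so were the fibrillar genes, at -1.08 for Col1a1, -1.37 for Col1a2 and -0.99 for Col3a1. Per 1000 fibrillar UMIs Col12a1 was 46.5 there with clodronate and 43.8 with vehicle, while in the other 11 subclusters this proportion was lower in Lipo-Clo. The 10 mesenchyme markers summed to 13170 and 26287 CPM in subcluster 7, and their part in its ratios was not tested. The interval spanned 0 in the Pi16 subcluster 8, at -0.06 (-0.35 to 0.21), where the gene was low in both libraries. With cells thinned to 1000 UMIs, 80.7% of Lipo-Clo and 93.9% of Lipo-PBS cells of subcluster 1 had a Col12a1 UMI.

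Col14a1 was lower in Lipo-Clo in all 6 subclusters that had at least 50 of its UMIs, in 5 with an interval below 0. In its home subclusters the differences were small, with log2 ratios of -0.24 (-0.35 to -0.13) in subcluster 3 and -0.20 (-0.37 to -0.05) in subcluster 8. The lowest ratio was -4.25 (-5.50 to -3.21) in dividing cells, from 8 UMIs in Lipo-Clo and 98 in Lipo-PBS. In those cells the 8 markers of adventitial or gingival fibroblasts summed to 193 CPM in Lipo-Clo, with 7 detected, and to 723 CPM in Lipo-PBS, with all 8 detected. The erythroid markers summed to 8764 and 68451 CPM in the same cells. The part of both in the Col14a1 value was not tested.

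The CPM of Col16a1 was higher in Lipo-Clo in 8 of 12 subclusters and lower in 4, each with an interval clear of 0. Over all such pairs of gene and subcluster, 15.6% lay above 0 and 13.9% below. It was higher in the follicle-like subcluster 1, at 647 CPM in Lipo-Clo and 415 in Lipo-PBS (log2 ratio 0.64, 0.50 to 0.78), which is where Col12a1 differed most in the opposite direction. In the ligament-like subcluster 2, where Col16a1 had its highest CPM, the log2 ratio was -0.13 (-0.20 to -0.07). It was also lower in the papilla- or pulp-like subclusters 6 (-0.21) and 7 (-0.72) and in the Dspp-led subcluster 10 (-0.73).

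All 3 collagen VI genes were higher in Lipo-Clo in the Fmod ligament-like subcluster 5, beyond counting error, and by less in subcluster 0 (from 0.25 to 0.27). Col6a1 was 1235 CPM in Lipo-Clo and 955 in Lipo-PBS there (log2 ratio 0.37, 0.24 to 0.50), Col6a2 was 951 and 584 CPM (0.70, 0.55 to 0.85), and Col6a3 was 1514 and 973 CPM (0.64, 0.52 to 0.75). Col22a1 was also higher in this subcluster, with 27 UMIs of 614398 in Lipo-Clo and 28 of 1665342 in Lipo-PBS (1.39, 0.57 to 2.20). Markers of osteoblasts and cementoblasts, all 8 detected, summed there to 11380 CPM with clodronate and 5944 CPM with vehicle, and their part in the ratios was not tested. The highest ratios of Col6a1 (0.43) and Col6a2 (0.84) were in the haemoglobin-led subcluster 11, and the lowest of Col6a3 (-0.88) was in subcluster 10. Dividing cells went the other way for Col6a1 (-0.55, -0.77 to -0.34) and Col6a3 (-0.49, -0.71 to -0.26). Over the 12 subclusters the interval lay above 0 in 4 for Col6a1, 6 for Col6a2 and 4 for Col6a3, and below 0 in 3, 0 and 2. Of all pairs of a gene in use and a subcluster with at least 50 UMIs, 15.6% lay above 0 and 13.9% below.

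**Figure D5:**
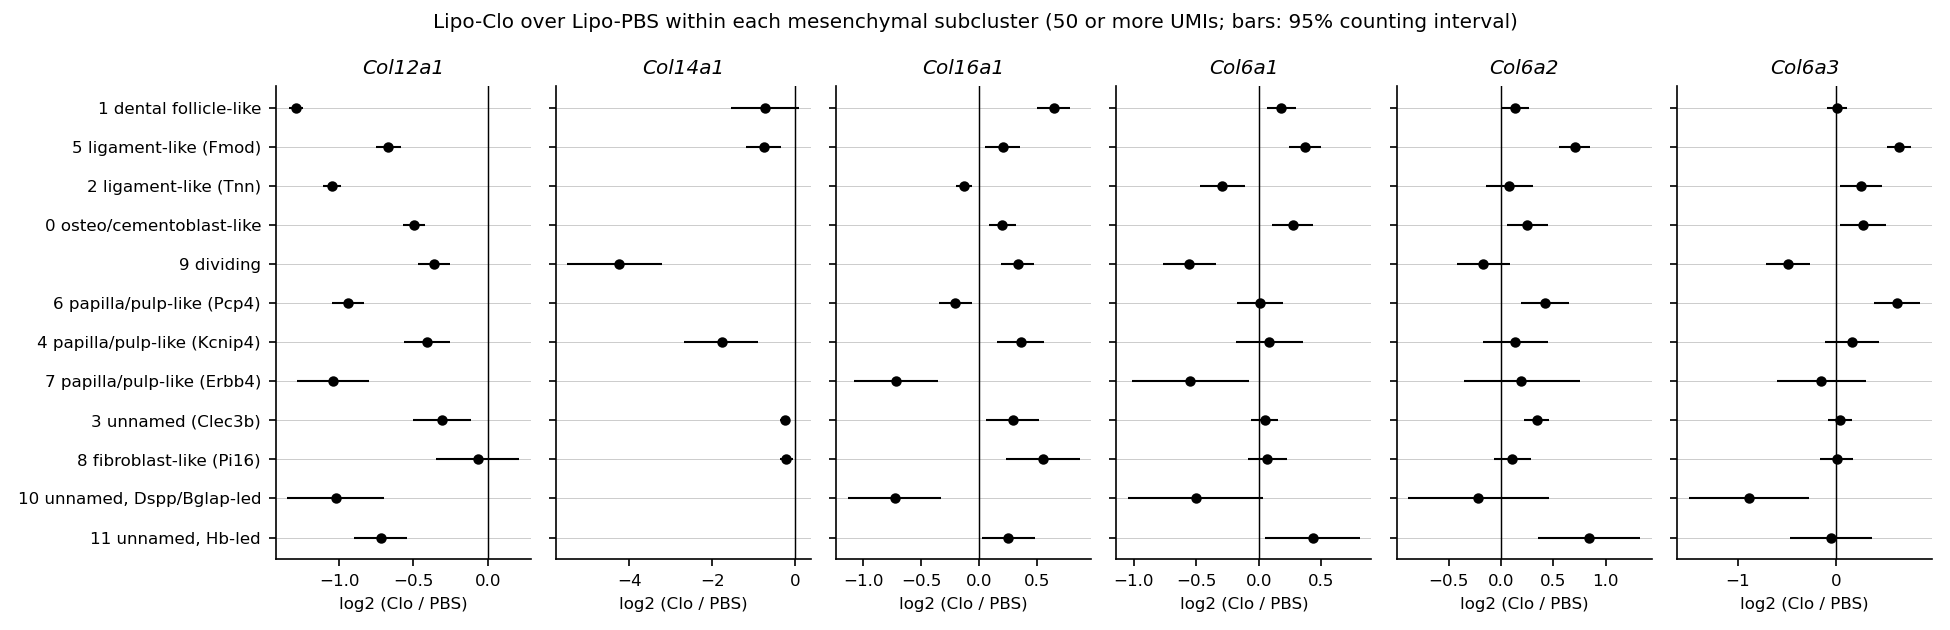
Log2 ratio of Lipo-Clo over Lipo-PBS within each mesenchymal subcluster with at least 50 UMIs of the gene, bars being the 95% counting interval of the 2 libraries. Horizontal scales differ between genes. Col12a1 lies left of 0 throughout except in subcluster 8, where the bar crosses 0, while Col16a1 and the collagen VI genes fall on both sides.

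Outside mesenchyme, Col12a1 had an interval below 0 in 7 of 9 classes and Col14a1 in all 5 classes with at least 50 UMIs, beside 17.4% of all pairs of a gene and a class (14.2% lay above 0). For Col12a1 these classes included the blood cells (the neutrophil class, T or NK cells, B cells and erythroid cells), and for Col14a1 the neutrophil class. In the neutrophil class alone, 35.8% of genes with at least 50 UMIs lay below 0. The part of RNA from other cells in the ratios of blood cells was not tested. Glia and macrophages were the exceptions for Col12a1, at 0.13 and 0.17 with intervals that spanned 0. These exceptions turned with the choice of cells, to between -0.38 and -0.33 in glia under 3 of 7 alternatives and to between -0.89 and -0.56 in macrophages under 4 of 7. Col12a1 was lower in Lipo-Clo perivascular cells (274 and 590 CPM, log2 ratio -1.11, -1.34 to -0.89). Col6a2 was higher there (441 and 345 CPM, 0.35, 0.15 to 0.56), while Col6a1 (-0.07) and Col6a3 (-0.08) had intervals that spanned 0. These ratios moved with the choice of cells: with every deposited cell kept Col12a1 was -0.19 and Col6a2 0.01, and with the members allowed among the variable genes they were -0.18 and 0.04. In this class 7.24% of genes with at least 50 UMIs lay below 0 beyond counting error and 13.6% above it. In glia Col16a1 was 550 CPM in Lipo-Clo and 348 in Lipo-PBS (0.66, 0.39 to 0.93) and Col14a1 was 181 and 269 CPM (-0.57, -0.98 to -0.17). Col1a1, the main fibrillar collagen gene, was also higher in Lipo-Clo glia, at 0.52 (0.45 to 0.58).

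The partners of these collagens were read from lists of related genes. Their ratios are those of the summed mesenchyme as measured, without giving each subcluster the same weight in both libraries. Of 11 fibrillar collagen genes 10 were in use and 0 passed 1.5-fold, with a median log2 ratio of -0.15. Col1a1 was 0.15, Col1a2 -0.11, Col3a1 -0.11 and Col5a2 -0.35. Of 11 matrix proteins known to bind fibrils, FACITs or collagen VI, 10 were in use, 3 were lower past 1.5-fold (beside 5.24% of all genes in use) and 0 higher, with a median of -0.23. These 3 were Dcn (844 and 1460 CPM, -0.79), which encodes decorin, a proteoglycan of fibril surfaces, and Tnxb (41.8 and 97.4 CPM, -1.22) and Fmod (57.8 and 90.3 CPM, -0.64), which were named after their values were seen. Lum (0.03), Bgn (-0.09) and Fn1 (-0.58) did not pass. Tnxb was among the leading genes of subclusters 3 and 8, and Fmod of subcluster 5. The part of the subcluster weights in their ratios was not tested.

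Of 10 collagen receptor genes 5 were in use. All 5 were lower in Lipo-Clo and 2 passed 1.5-fold, with a median of -0.51, beside 2401 lower and 249 (5.24%) past 1.5-fold lower among the 4749 genes in use. The integrin β1 gene Itgb1, shared by the collagen-binding integrins, was at 538 and 917 CPM (-0.77), and Antxr2, a receptor that takes up collagen VI, at 51.7 and 91.1 CPM (-0.82). Antxr1 was -0.51 and the discoidin receptor gene Ddr2 -0.24. Of 12 genes for collagen folding and modification 11 were in use and 0 passed, with a median of 0.14, among them the chaperone gene Serpinh1 at 0.30, P4hb at -0.04, Plod2 at -0.40 and Fkbp10 at 0.27. Of 9 further FACIT and collagen VI genes, 8 were measured and 1 was in use, Col9a2 at 88.0 and 66.0 CPM (0.41).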

How the data were processed

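The deposited values are raw UMI counts of each gene in each cell, made by the authors and not normalized. The matrix headers name Cell Ranger 8.0.0, while the submitters' processing notes name Cell Ranger 3.1.0, Seurat 3.1.1 and GRCm39, and this difference could not be settled here. A cell had to show 200 genes or more and a mitochondrial share of UMIs no higher than 20%, which kept 8886 of 9362 cells in Lipo-Clo and 8894 of 9653 in Lipo-PBS. Scrublet's automatic threshold called 0 and 1 doublets, so the 632 and 633 highest scores (0.8% per 1000 cells) were left out. Counts were scaled to 10000 per cell, and 2000 variable genes without the 7 members, 30 components and 20 neighbours entered Leiden clustering at resolution 1 (scanpy 1.11.5, leidenalg 0.10.2), with 20 components and resolution 0.6 for mesenchyme. A class or subcluster was named where at least 3 of its markers were 2-fold above the median cluster and in at least 10% of cells, unless its 10 leading genes held more markers of another class or it carried markers of several lineages.

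UMIs were summed per library and class, because cells are not replicates. Ratios carry exact intervals for 2 Poisson counts, and the interval code was tested on simulated data. Ratios by class or subcluster needed at least 50 UMIs. Genes named are the members, up to 4 genes per list with most mesenchymal UMIs, and the 3 genes nearest each member. The members, the lists and the markers of classes and subclusters were chosen with earlier results of these data known. Alternatives were other cell filters, clusterings, scalings (edgeR 4.0.16, DESeq2 1.42.0), thinning, the same mixture of subclusters and limits of 1.25-fold and 2-fold. In the kept cells, mitochondrial genes took 0.370% (Lipo-Clo) and 1.73% (Lipo-PBS) of UMIs.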

Additional observations from a re-analysis of the deposited data

Results flagged for a closer look

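Members whose ratio lay on opposite sides of 0 in different cells, beyond counting error on both sides, are given here with the lowest and the highest value. None of these differences between cells was tested. Among classes, the log2 ratio of Col16a1 was -1.04 in the neutrophil class and 0.66 in glia, that of Col6a2 was -1.56 in the neutrophil class and 0.35 in perivascular cells, and that of Col6a3 was -2.003 in the neutrophil class and 0.50 in B cells. The B cell interval only just cleared 0 (0.01 to 1.02, from 140 UMIs in Lipo-Clo and 45 in Lipo-PBS). Among mesenchymal subclusters, Col16a1 was -0.73 in the Dspp-led subcluster 10 and 0.64 in the follicle-like subcluster 1. Col6a1 was -0.55 in dividing cells and 0.43 in the haemoglobin-led subcluster 11, and Col6a3 was -0.88 in subcluster 10 and 0.64 in the Fmod ligament-like subcluster 5. Of 8006 genes with at least 50 UMIs in the neutrophil class, 35.8% lay below 0 beyond counting error and 13.2% above it. In this class Col1a1 was also lower, at -1.59. The collagen VI genes together stood there at 20.8 per 1000 fibrillar UMIs in Lipo-Clo and 24.4 in Lipo-PBS, beside 20.05 and 23.4 in mesenchyme. In B cells this proportion was 25.1 (22.6 to 27.7) in Lipo-Clo and 15.0 (12.7 to 17.6) in Lipo-PBS, the opposite direction to mesenchyme.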

How the results depend on the processing

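No paired analysis was possible because there is only 1 library of each kind. Under 15 alternatives, 2 of them (without the haemoglobin-led subcluster, and with the cluster of several lineages counted as mesenchyme) chosen after seeing the data, Col12a1 had log2 ratios in mesenchyme from -0.91 to -0.67 and Col14a1 from -1.31 to -0.36. The count of 2 lower members became 1 with the same mixture of subclusters and 1 with a limit of 2-fold. It was 2 in the other alternatives, and the count of higher members was 0 in all. The median of -0.18 became -0.11 with DESeq2 size factors, -0.12 with the cluster of several lineages counted in, and 0.094 with the same mixture, where Col6a1 (0.087), Col6a2 (0.28) and Col6a3 (0.17) also changed sign. In the other alternatives the signs of these 3 genes and of Col16a1 were unchanged. Sizes did move: of 15 values of Col6a2, 12 stayed inside the interval of its main ratio, 2 left it and 1 changed sign. In classes, Col6a3 in B cells became -0.14 with doublets kept, -0.095 with every cell kept and -0.18 with each library clustered on its own. In erythroid cells Col16a1 became 0.63 and Col6a1 0.28 with every cell kept, and 0.94 and 0.52 with separate clustering, where Col12a1 became 0.67. In perivascular cells Col12a1 and Col6a2 moved as given above, and Col14a1 ran from -2.68 to -1.13. The cause was not tested. The Col22a1, glia, macrophage and small epithelial values rest on few counts or cells.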
